A study of Mus musculus with 7 samples.

Results

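The blood vessels of a mouse brain tumour were described here through 10 genes of the 32285 in the deposited tables. Of these, 5 mark the sealed brain vessel (Cldn5, Ocln, Mfsd2a, Slco1a4 and Abcb1a) and 5 mark leaky or sprouting vessels (Plvap, Angpt2, Esm1, Apln and Aplnr). The genes were chosen by symbol, and all 10 were found. They were read in endothelial cells, taken as cells with at least 5 unique molecular identifiers (UMIs, the counted transcript molecules) of Pecam1, Cdh5, Cldn5 and Flt1 together, at least 2 of these 4 genes seen, and no UMI of Ptprc, which encodes the leukocyte antigen CD45. This gate held 482 of 48588 cells in 7 libraries.

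The 7 libraries came from whole tumours of the NSCG-mCherry line (EGFRvIII-positive, deleted for Arf/Ink4a) grown in wild-type C57BL/6 mice of 7 to 10 weeks and taken at day 14. Each library is a pool of tumours from 2 or more mice, so the library is the replicate and the spread between mice was not measurable. UT (1 library) was the untreated control, and the IgG group (libraries IgG 1 and IgG 2) received an IgG2b isotype antibody at 10 mg/kg. The BP group (BP 1 and BP 2) received the VEGF-blocking antibody B20 (5 mg/kg) and anti-PD-L1 (10 mg/kg) every 3 days from day 6 to 7. BPI (1 library) received the same pair with IPI-145, an inhibitor of the delta and gamma forms of PI3 kinase, at 10 mg/kg daily by gavage. CD40 (1 library) received 2 doses of 100 µg of an agonist antibody against CD40, 5 days apart, and it is not clear from the labels if a vaccine of dendritic cells was part of the treatment. B20 was given with anti-PD-L1 in each of its 3 libraries, so the effects of these antibodies cannot be told apart. UT, BPI and CD40 are 1 library each and have no replicate check.

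Brain capillaries differ from those of most organs in that tight junctions seal the gaps between endothelial cells, traffic of vesicles across the cell is held low, and dedicated transporters control what passes. Wnt and beta-catenin signalling through TCF/LEF factors in the endothelial cell keeps this state in the brain. When vessels sprout, VEGF signalling through its receptor Kdr selects tip cells that lead the sprout, and tumour vessels formed this way are often leaky and carry the fenestral protein Plvap.

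RefSeq promoter windows were found for 7 of the 10 genes (Plvap, Angpt2 and Aplnr had no entry), and 3 are shown because Mfsd2a and Slco1a4 varied together from cell to cell while Apln was the member that passed the test between groups. Each is the 250 bases before the annotated start on GRCm38.p6, 5′ to 3′ on the gene's own strand, with CTTTG or its reverse complement CAAAG, the core of TCF/LEF motifs, in capitals. The windows are chr4:122961189-122961438 (minus strand) for Mfsd2a, chr6:141856221-141856470 (minus strand) for Slco1a4 and chrX:48034854-48035103 (minus strand) for Apln.
Mfsd2a: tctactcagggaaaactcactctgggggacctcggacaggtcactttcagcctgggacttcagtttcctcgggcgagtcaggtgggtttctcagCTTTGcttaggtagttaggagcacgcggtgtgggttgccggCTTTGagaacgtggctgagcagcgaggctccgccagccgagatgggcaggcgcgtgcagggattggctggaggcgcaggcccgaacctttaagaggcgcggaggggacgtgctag
Slco1a4: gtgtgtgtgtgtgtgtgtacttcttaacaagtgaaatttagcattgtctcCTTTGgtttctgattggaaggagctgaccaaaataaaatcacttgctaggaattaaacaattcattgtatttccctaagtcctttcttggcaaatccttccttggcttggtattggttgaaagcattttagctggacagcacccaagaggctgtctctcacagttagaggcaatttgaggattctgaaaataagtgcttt
Apln: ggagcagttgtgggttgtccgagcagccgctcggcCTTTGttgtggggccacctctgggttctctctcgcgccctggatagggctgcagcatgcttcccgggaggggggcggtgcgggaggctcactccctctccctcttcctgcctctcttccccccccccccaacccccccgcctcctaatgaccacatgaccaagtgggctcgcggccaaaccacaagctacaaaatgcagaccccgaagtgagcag
The Mfsd2a window held 2 matches to this core, and the Slco1a4 and Apln windows held 1 each. Of the other matched genes, Abcb1a held 3, Esm1 held 1, and Cldn5 and Ocln held 0. The Abcb1a window lies at another annotated start (chr5:8566841-8567090), upstream of the GENCODE gene. Among all 27025 RefSeq promoter windows of this length, 48.8% held at least 1 match, so a match is common. The hypoxia response core ACGTG (or CACGT) was in the Mfsd2a window at 2 positions and at none in the other 6 windows, against 16.6% of all windows with a match. The ETS core GGAA (or TTCC) had 0 to 5 matches per window (93.4% of all windows hold it), and the SOX core ACAAT (or ATTGT) had 3 in Slco1a4 and 0 in the other 6 (28.3%). Both strands were searched for each core, and a match is a description of letters only.

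Sequencing gave 68997476 to 186793886 UMIs per library and 5373 to 9650 cells after filtering, and no pair of libraries shared more than 23 cell barcodes. UT draws on another list of barcodes than the other 6 libraries although the labels give 1 kit chemistry for all, and the part of this in the values of UT was not tested. The gate gave 64 endothelial cells in UT, 12 in IgG 1, 110 in IgG 2, 202 in CD40, 62 in BP 1, 8 in BP 2 and 24 in BPI. IgG 1 and BP 2 had under 20 cells, and BP 2 rests on 27166 endothelial UMIs against 160036 to 3935054 in the others. The summed level of 15 endothelial genes outside the gate, with none of the 15 at 0, was lowest in BP 1 (3483 CPM, a gene's or list's UMIs scaled to the endothelial UMIs of the library) and in UT (5148), against 6174 to 8945 in the other libraries. In BP 1 the 13 leukocyte markers summed to 663 CPM and C1qa, a macrophage gene, stood at 325 CPM, both the highest of the 7 libraries. A stricter identity gate, added after the data were seen, asked in addition for at least 10 gate UMIs per 10000 and at least 3 UMIs of 10 further endothelial genes (Kdr, Tie1, Tek, Egfl7, Esam, Eng, Emcn, Erg, Robo4 and Sox17). It kept 51, 12, 102, 183, 34, 8 and 21 cells (411 in all, in the order given above), gave an endothelial sum of 8029 CPM in BP 1 and 7880 in UT, which the gate itself raises since its 10 genes are among the 15, and lowered the leukocyte sum to 126 and 122. In BP 1 some other marker sums rose: the 6 fibroblast markers summed to 184 CPM with the first gate and 434 with the identity gate (0 to 76.9 in the other libraries), and the 10 tumour markers, which include Vim, also made by endothelial cells, to 2583 and 3931 (810 to 2201 in the others). The rise of the tumour sum was in Vim (1928 to 3304 CPM) and Gfap (207 to 359). Egfr (93.3 to 54.9 CPM), Sox2 (71.0 to 36.6), Olig1 (30.6 to 9.98) and Olig2 (10.4 to 4.99) fell. So did Fabp7 (33.4 to 21.6 CPM), Ptprz1 (39.7 to 23.3) and Nes (169 to 116). Mural cell markers (12 genes) stayed at 13.6 CPM in IgG 1 and up to 3754 CPM in BP 2 under the identity gate. With the first gate, 97 of 202 cells in CD40, 44 of 110 in IgG 2 and 4 of 8 in BP 2 held 3 or more mural UMIs. So did 16 of 64 cells in UT, 1 of 12 in IgG 1, 11 of 62 in BP 1 and 3 of 24 in BPI. The 5 ependymal or choroid markers summed to 5346 CPM in IgG 2 and 6307 in CD40, against 0 to 13.6 in the other 5 libraries, nearly all of it Ttr, of which 64.3% and 49.5% of the UMIs were in 1 cell. Under the identity gate Ttr was 5562 CPM in IgG 2 and 121 in CD40. Members are therefore given under both gates, and where mural, leukocyte, fibroblast, tumour or choroid markers move with a value, their part in it was not tested. The identity gate asks for more gate UMIs, Cldn5 among them, so it can also shift members that vary with Cldn5. Its part in the member levels was not tested.

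Both junction genes were detected in each library. Cldn5 (ENSMUSG00000041378, chr16:18776847-18778262, plus strand, GRCm38) encodes claudin-5, the main claudin of brain endothelial tight junctions, and is itself one of the 4 gate genes. Its level was 1831 CPM in UT, 3180 in IgG 1, 3212 in IgG 2, 2810 in CD40, 1151 in BP 1, 4012 in BP 2 and 3843 in BPI. BP 1 was the lowest and BP 2 the highest library, so the BP pair spanned the range of all others. Under the identity gate Cldn5 stood at 2821, 3180, 3353, 3329, 2691, 4012 and 4010 CPM in the same order, and the gap between the lowest and the highest library shrank. In BP 1, 25 of the 62 gated cells had no Cldn5 UMI. Ocln (ENSMUSG00000021638, chr13:100496507-100552718, minus strand) encodes occludin, a membrane protein of the same junctions. Ocln was 62.7 CPM in UT, 86.3 in IgG 1, 101 in IgG 2, 93.5 in CD40, 65.4 in BP 1, 147 in BP 2 (4 UMIs) and 56.2 in BPI. The libraries given B20 lay on both sides of the others. With the identity gate BP 1 stood at 143 CPM, so that both BP libraries (143 and 147) lay above both IgG libraries (86.3 and 105). The counting intervals of BP 1 (114 to 177 CPM) and IgG 2 (92.4 to 118 CPM) overlapped, and BPI (59.4 CPM) was the lowest library.

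Mfsd2a (ENSMUSG00000028655, chr4:122946850-122961188, minus strand) encodes a lipid transporter that takes docosahexaenoic acid into the brain and holds down vesicle traffic across the endothelium. It was 61.0 CPM in UT, 141 in IgG 1, 66.3 in IgG 2, 111 in CD40, 20.2 in BP 1, 479 in BP 2 and 131 in BPI. The high value of BP 2 came from 13 UMIs, of which 61.5% were in 1 cell, and the groups overlapped. The identity gate gave 83.8 CPM in UT, 68.7 in IgG 2, 132 in CD40, 41.6 in BP 1 and 132 in BPI, and the groups again overlapped. Slco1a4 (ENSMUSG00000030237, chr6:141805440-141856199, minus strand) encodes an organic anion transporter of brain capillaries. It was 322 CPM in UT, 291 in IgG 1, 349 in IgG 2, 436 in CD40, 304 in BP 1, 1252 in BP 2 and 256 in BPI. Within the identity gate BP 1 stood at 699 CPM, and then both BP libraries lay above both IgG libraries (291 and 358 CPM), while BPI (270.4 CPM) lay below both. Abcb1a (ENSMUSG00000040584, chr5:8660077-8748575, plus strand) encodes P-glycoprotein, the pump that returns many drugs to the blood. It was 170 CPM in UT, 377 in IgG 1, 419 in IgG 2, 492 in CD40, 200.4 in BP 1, 736 in BP 2 and 425 in BPI, so the BP pair lay on both sides of IgG. With the identity gate BP 1 stood at 462 CPM, and both BP libraries lay above both IgG libraries (377 and 433). The counting intervals of BP 1 (410 to 520 CPM) and IgG 2 (408 to 460 CPM) overlapped. How many of all genes part BP from IgG in this way was not counted, here or for other genes. Its near-identical neighbour Abcb1b (chr5:8798147-8866315) can share reads with it, so the split between them is uncertain; Abcb1b stood at 9.09 and 12.8 CPM in IgG and at 48.7 and 110 CPM in BP.

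**Figure D1:**
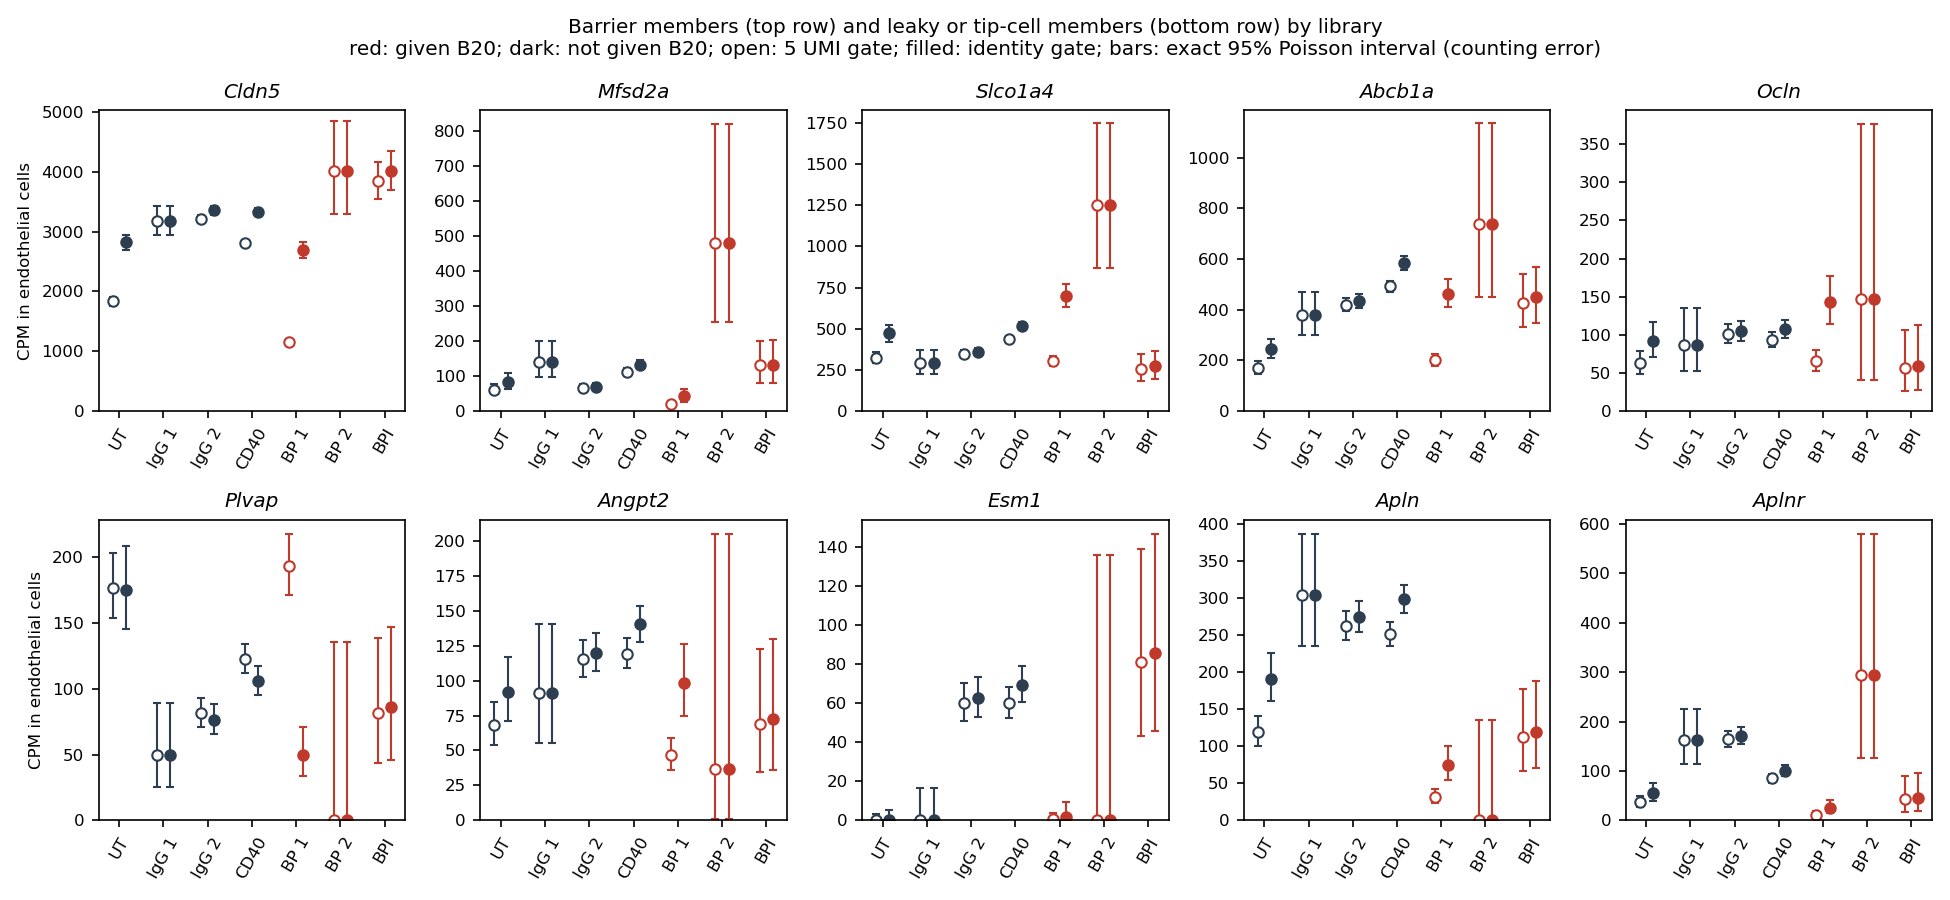
Level of each member (CPM of summed endothelial UMIs, vertical axis) in each library (horizontal axis), with barrier genes in the top row and leaky or tip-cell genes in the bottom row. Open points use the gate of 5 UMIs, filled points the identity gate, red marks libraries given B20, and bars are exact 95% Poisson intervals that cover counting error only. Apln is lower in the 3 red libraries (0 to 113 CPM) than in the 4 dark ones (119 to 304 CPM). How many of all genes part in this way was not counted.

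Among the leaky and sprouting genes, Apln alone had levels that did not overlap between libraries with and without B20. How many of all genes part these libraries in this way was not counted. Apln (ENSMUSG00000037010, chrX:48025146-48034853, minus strand) encodes the peptide apelin, made by sprouting tip cells. It was 119 CPM in UT, 304 in IgG 1, 263 in IgG 2, 251 in CD40, 31.3 in BP 1, 0 in BP 2 and 113 in BPI. The 3 libraries given B20 (0 to 113 CPM) lay below the 4 without it (119 to 304 CPM), although BPI and UT were close neighbours whose counting intervals overlapped. The separation rests on few cells, since 31.4% of the Apln UMIs of UT and 50% of the 18 in BPI were in 1 cell each. Under the identity gate the libraries with and without B20 stayed apart, at 191, 304, 275 and 298 CPM without B20 against 74.8, 0 and 119 CPM with it. The 0 in BP 2 comes from 8 cells and allows a level of up to 110 CPM at 3 counts. After thinning each cell to 2000 UMIs, 10.3% of UT cells held an Apln UMI, 33.3% of IgG 1, 24.5% of IgG 2, 16.9% of CD40, 6.45% of BP 1, 0% of BP 2 and 18.8% of BPI. These shares overlapped between libraries with and without B20, since BPI lay above UT and CD40.

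Aplnr (ENSMUSG00000044338, chr2:85136225-85139923, plus strand) encodes the receptor of apelin. It was 36.6 CPM in UT, 164 in IgG 1, 164 in IgG 2, 85.1 in CD40, 11.1 in BP 1, 295 in BP 2 and 43.7 in BPI. The BP 2 value was 8 UMIs in 1 cell, and the B20 libraries held both the lowest and the highest value. The identity gate gave 55.9 CPM in UT, 171 in IgG 2, 100.5 in CD40, 25.0 in BP 1 and 46.2 in BPI. Angpt2 (ENSMUSG00000031465, chr8:18690263-18741562, minus strand) encodes angiopoietin-2, which loosens vessels by acting on the receptor Tie2. It was 68.0 CPM in UT, 90.9 in IgG 1, 115 in IgG 2, 119 in CD40, 46.6 in BP 1, 36.8 in BP 2 (1 UMI) and 68.7 in BPI. Both BP libraries lay below both IgG libraries, but with the identity gate BP 1 stood at 98.1 CPM and the groups overlapped. In IgG 1, 70% of the Angpt2 UMIs were in 1 cell.

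Esm1 (ENSMUSG00000042379, chr13:113209659-113218098, plus strand) encodes endocan, a secreted proteoglycan used as a tip-cell marker. It was 0 CPM in UT, 0 in IgG 1, 60.1 in IgG 2, 59.97 in CD40, 0.696 in BP 1 (1 UMI), 0 in BP 2 and 81.2 in BPI. Both groups held libraries at 0, and the BPI level rested on 13 UMIs of which 84.6% were in 1 cell. In IgG 2 the UMIs were spread over 19 of 110 cells and in CD40 over 25 of 202, and the identity gate gave 62.6 CPM in IgG 2, 69.4 in CD40, 1.66 in BP 1 and 85.7 in BPI. Plvap (ENSMUSG00000034845, chr8:71497765-71511752, minus strand) encodes the protein of fenestral and caveolar diaphragms and is low in the intact barrier. It was 177 CPM in UT, 50.0 in IgG 1, 81.5 in IgG 2, 123 in CD40, 194 in BP 1, 0 in BP 2 and 81.2 in BPI. BP 1 was the highest library with the first gate, and with the identity gate it stood at 49.9 CPM, below UT (175), IgG 2 (76.4), CD40 (106) and BPI (85.7). In BPI, 92.3% of its 13 Plvap UMIs were in 1 cell.

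Plvap was the member that did not mark endothelial cells in these tumours. In the cells outside the endothelial, mural and leukocyte gates it stood at 95.4 to 268 CPM over the 7 libraries, and 47.6% to 72.7% of these cells held a Plvap UMI. Endothelial cells of the identity gate were below these other cells in 7 of 7 libraries, with a ratio of 0.364 to 0.899 in the 6 libraries with Plvap UMIs. With the first gate they were above in 1 of 7. Leukocytes (at least 2 Ptprc UMIs and no gate UMI) held 5.21 to 25.0 CPM, with a UMI in 1.62% to 12.0% of cells at median depths of 3154 to 7938 UMIs. The part of free RNA in these values was not tested. Barcodes of under 100 UMIs, which hold free RNA, carried Plvap at 75.3 to 264 CPM.

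Other cells with at least 3 UMIs of the tumour markers Sox2, Egfr, Olig1, Olig2, Ptprz1 and Fabp7 held Plvap at 101 to 292 CPM, with a UMI in 66.2% to 84.8% of cells at median depths of 12024 to 22410.5 UMIs. Other cells with fewer such UMIs held it at 33.6 to 171 CPM, in 14.9% to 44.1% of cells at median depths of 3235.5 to 7703.5. In BP 1 the gated cells that failed the identity gate carried 297 CPM of Plvap, and in UT 181, CD40 211 and IgG 2 188.5. In BPI the 3 such cells carried 0 CPM. The remaining members stood higher in endothelial cells than in other cells in every library where they had an endothelial UMI. The smallest ratio among libraries with at least 3 endothelial UMIs of the gene was 4.12, for Angpt2, which other cells held at 8.47 to 25.4 CPM, and in BP 2 the 1 Angpt2 UMI gave 36.8 CPM against 18.2 in other cells. Apln was 0 to 1.44 CPM in other cells, Esm1 0 to 0.0689 and Slco1a4 0.0404 to 2.36.

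**Figure D2:**
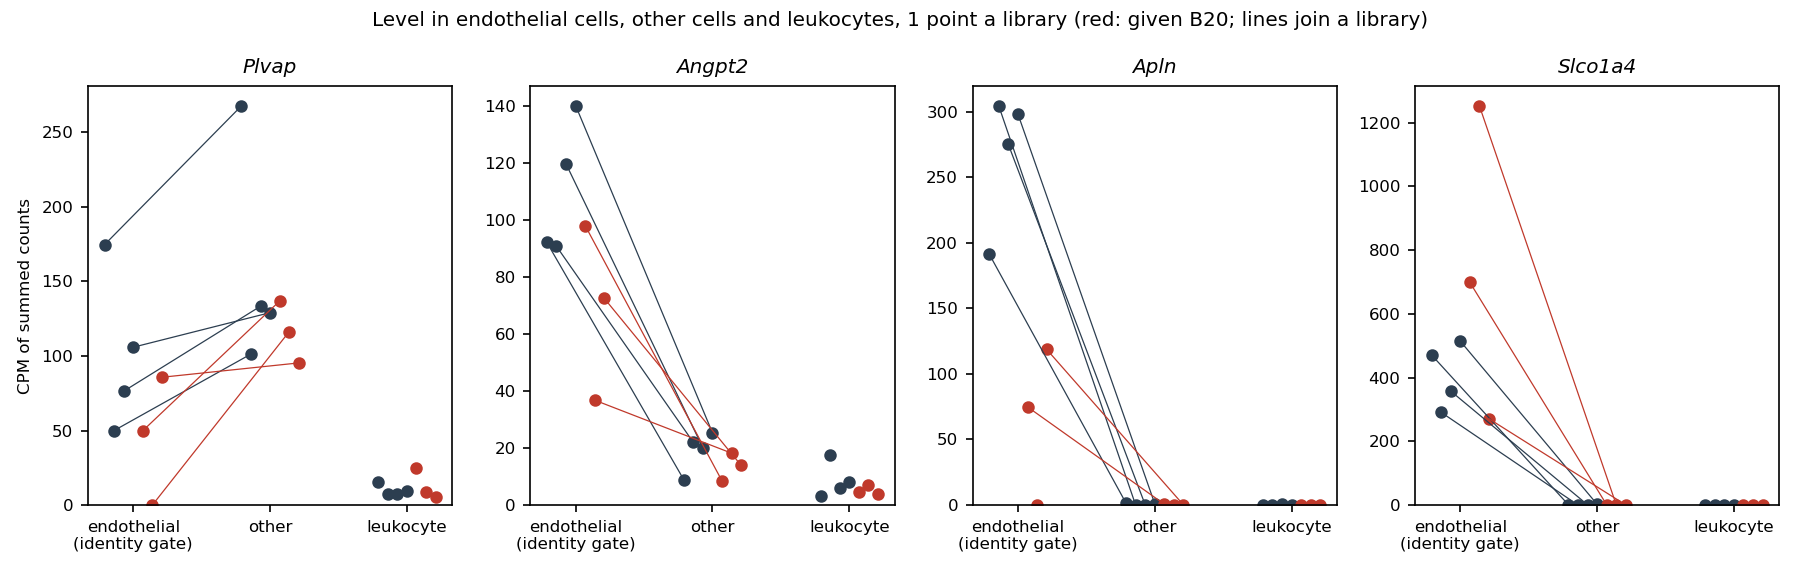
Level of Plvap, Angpt2, Apln and Slco1a4 (CPM of summed UMIs, vertical axis) in identity-gate endothelial cells, other cells and leukocytes, with 1 point per library, lines joining the endothelial and other cells of a library, and red for libraries given B20. Plvap lies higher in other cells (95.4 to 268 CPM) than in endothelial cells in each library, and the other 3 genes lie higher in endothelial cells except Apln in BP 2, which had 0 UMIs. For Plvap the endothelial counting intervals of BP 2 and BPI, not drawn, reach above the value of other cells.

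The comparison of BP with IgG asks what blocking VEGF and PD-L1 together does to the vessel cells. Apln fell with the first gate and edgeR: its level was 15.7 ± 22.2 CPM in BP against 283.5 ± 29.6 CPM in IgG (SD, n = 2 libraries each), a log2 difference of -3.54 ± 0.67 (SE), adjusted p = 0.00188 with edgeR's quasi-likelihood test and Benjamini-Hochberg adjustment over 9049 genes. It was the only member called, 1 of the 9 tested, in a comparison that called 1.83% of all genes tested (113 higher and 53 lower). The call was lost in 5 of 15 alternatives, among them the identity gate (edgeR adjusted p = 0.310) and DESeq2 (adjusted p = 0.178). The other leaky and sprouting genes had log2 differences of -1.44 ± 0.54 for Angpt2, -2.31 ± 0.88 for Aplnr and 0.86 ± 0.56 for Plvap, with adjusted p of 0.261, 0.273 and 0.798 from edgeR, and Esm1 was too low to enter the test. Of the 5 barrier genes 0 were called: Cldn5 -0.82 ± 0.84, Ocln -0.56 ± 0.54, Mfsd2a -0.31 ± 0.84, Slco1a4 0.68 ± 0.65 and Abcb1a -0.41 ± 0.64, all with an edgeR adjusted p of 0.921 or more.

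The names of IgG 1, BP 2 and BPI run on from each other, as do those of CD40 and IgG 2, and whether these were processed together is not stated. Within the first set Apln was 304 CPM in IgG 1, 0 in BP 2 and 113 in BPI, and the second set holds no library given B20.

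Within the identity gate edgeR called 0 of 6820 genes (0%; 520 at an unadjusted p under 0.05), and Apln had a log2 difference of -2.36 ± 0.58. Plvap had the opposite sign there, at -0.76 ± 0.58, and Slco1a4 had the highest value among the barrier genes at 1.24 ± 0.50 (adjusted p = 0.607, edgeR). With the first gate, DESeq2 called 2 genes, not Apln (log2 difference -3.68). Across 15 alternatives Apln kept its direction in 15 and its call in 10, with edgeR or DESeq2 adjusted p from 3.504e-05 to 0.432. Its log2 difference was -3.78 to -2.33 in these, except without BP 1, where BP 2 is left with 0 UMIs and the fitted value is no measure of size. Without BP 1 edgeR called 0 of 5595 genes (801 at an unadjusted p under 0.05). Without BP 2, the library of 8 cells, Mfsd2a (-2.48, adjusted p = 0.00983), Esm1 (-5.91, 0.0109, from 1 UMI in BP 1) and Aplnr (-4.12, 4.069e-05) were called beside Apln (-3.42, 9.385e-05) by edgeR, a comparison that then rests on BP 1 and its 28 of 62 cells outside the identity gate. Cldn5 had -1.73 there (edgeR adjusted p = 0.00201), but it is a gate gene whose level in gated cells is partly set by the rule, and its values here and in the other fits are given as a description.

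The wider comparison set the 3 libraries given B20 (BP 1, BP 2 and BPI) against the 4 not given it (UT, IgG 1, IgG 2 and CD40). No member was called, in a comparison in which edgeR called 0% of 10064 genes (360 at an unadjusted p under 0.05) and DESeq2 called 0 (174 at an unadjusted p under 0.05). Apln had the lowest value among the members, with a log2 difference of -2.10 ± 0.68 (edgeR, unadjusted p = 0.00874, adjusted p = 0.9996), and lay lower in 3 of 3 B20 libraries than in each of the other 4. The share of all genes that part in this way was not counted. Across 18 alternatives the value of Apln stayed below 0 (-3.31 to -1.37) and its call did not change. Without UT, edgeR called 75 of 8920 genes and no member, and Apln had -2.32 ± 0.61 (edgeR adjusted p = 0.122). Angpt2 had -0.998 ± 0.43 (edgeR, unadjusted p = 0.0368), with BPI (68.7 CPM) just above UT (68.0 CPM). The barrier genes were not called, at -0.09 ± 0.59 for Cldn5, -0.41 ± 0.37 for Ocln, 0.35 ± 0.74 for Mfsd2a, 0.27 ± 0.45 for Slco1a4 and -0.02 ± 0.50 for Abcb1a. The remaining values were 0.02 ± 0.56 for Plvap, -0.68 ± 1.61 for Esm1 and -1.33 ± 0.91 for Aplnr.

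With the identity gate, chosen after the data were seen, the signs of the fitted values parted by kind: 4 of 4 barrier genes outside the gate had values above 0 (0.16 for Ocln, 0.39 for Mfsd2a, 0.61 for Slco1a4 and 0.29 for Abcb1a), and 5 of 5 leaky and sprouting genes had values below 0 (-0.83 for Plvap, -0.46 for Angpt2, -0.63 for Esm1, -1.68 for Apln and -1.06 for Aplnr). Apart from Apln, the leaky and sprouting genes overlapped between libraries with and without B20. Esm1 was highest in BPI (85.7 CPM), and Angpt2 in BP 1 (98.1 CPM) lay above UT (92.2) and IgG 1 (90.9). Cldn5, which the gate counts, had 0.11. In first-gate cells Cldn5 varied with Mfsd2a (Pearson's r = 0.36), Slco1a4 (0.54), Abcb1a (0.61) and Ocln (0.46), and against Plvap (-0.55). Its r was 0.09 with Angpt2, -0.16 with Esm1, 0.16 with Apln and 0.16 with Aplnr. A gate that asks for Cldn5 UMIs can thus shift the barrier genes and Plvap, and its part in these signs was not tested. Among the barrier genes the value was larger than its SE for Slco1a4 alone (0.61 ± 0.41), and with only libraries of at least 20 cells Mfsd2a turned to -0.21. Of all 8072 genes tested there, 53.1% lay below 0, with a median of -0.04. No single member passed the test (edgeR called 0 of 8072 genes, 437 at an unadjusted p under 0.05; Apln adjusted p = 0.595). This comparison shares the IgG and BP libraries with the one before it, so the values of both are given side by side and are not independent.

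**Figure D3:**
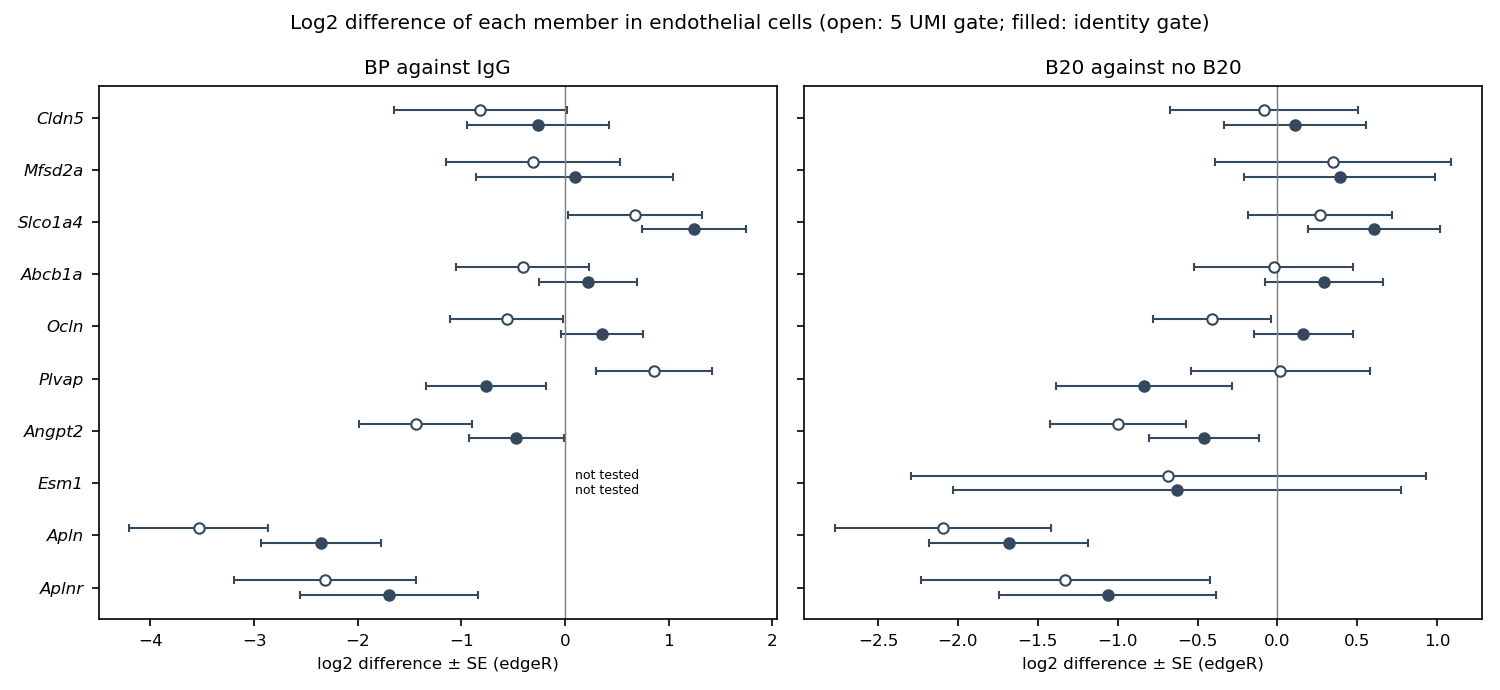
Log2 difference with its SE (edgeR, horizontal axis) for each member in BP against IgG (left) and in libraries with against without B20 (right). Open points use the gate of 5 UMIs and filled points the identity gate; Apln lies below 0 in all 4 fits (-3.54, -2.36, -2.10 and -1.68), and Plvap lies above 0 with the first gate (0.86 and 0.02) and below 0 with the identity gate (-0.76 and -0.83).

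The balance between both kinds was described as the share of leaky and sprouting UMIs among all member UMIs, with Cldn5 left out because the gate counts it. The share compares libraries and not genes. It was 39.4% in UT (exact 95% binomial interval 36.6% to 42.3%), 40.5% in IgG 1 (35.2% to 46.0%), 42.2% in IgG 2 (40.7% to 43.7%) and 36.0% in CD40 (34.9% to 37.2%). It was 32.5% in BP 1 (29.9% to 35.1%), 11.3% in BP 2 (5.28% to 20.3%, 9 of 80 UMIs) and 30.9% in BPI (24.5% to 37.7%). The B20 libraries were the 3 lowest, but the interval of BPI reached into those of UT, IgG 1 and CD40, and that of BP 1 into that of CD40. Under the identity gate BP 1 stood at 15.6%, UT stood at 36.6%, IgG 1 at 40.5%, IgG 2 at 42.3%, CD40 at 34.8% and BPI at 31.0%. Leaving out Plvap as well gave 27.6%, 38.4%, 39.5% and 31.3% in UT, IgG 1, IgG 2 and CD40, and 12.9%, 11.3% and 26.2% in BP 1, BP 2 and BPI. The 3 B20 libraries stayed lowest, and the values of UT and BPI lay close together. Leaving out Plvap, BPI lay above UT with Cldn5 left out of the gate (29.8% and 26.4%) and with a gate of 10 UMIs (26.2% and 25.9%), and after thinning BPI (26.1%) lay above UT (13.5%), CD40 (16.0%) and IgG 2 (25.8%). With Plvap kept, the order did not hold without cells with 3 or more mural UMIs, where IgG 1 (32.7%) lay below BP 1 (36.0%), or after thinning each cell to 2000 UMIs, where BPI (33.3%) lay above UT (17.8%), IgG 2 (28.3%) and CD40 (23.0%). No p is given for a score over chosen genes, and the intervals cover counting error only.

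**Figure D4:**
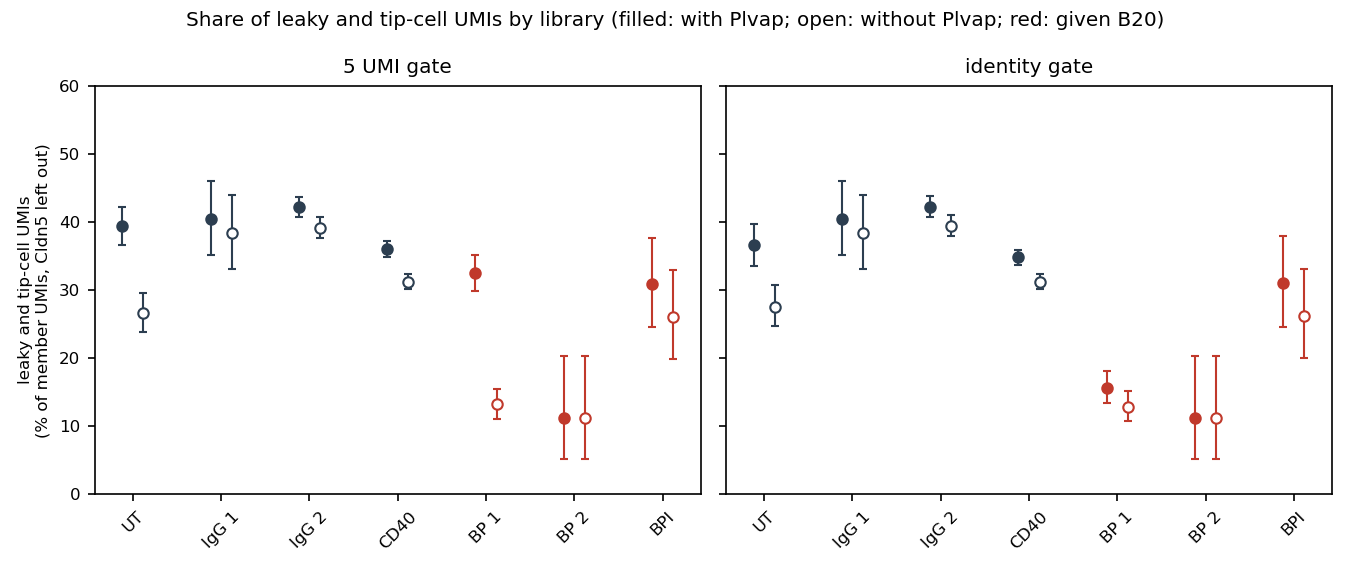
Share of leaky and sprouting UMIs among member UMIs, Cldn5 left out (percent, vertical axis), by library, for the gate of 5 UMIs (left) and the identity gate (right). Filled points include Plvap, open points leave it out, red marks libraries given B20 and bars are exact 95% binomial intervals; in BP 1 the share is 32.5% with Plvap and the first gate and 12.9% without Plvap under the identity gate.

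Barrier and sprouting genes were also set against each other from cell to cell. Of 380 identity-gate cells thinned to 2000 UMIs, 107 held a UMI of Angpt2, Esm1 or Apln (called tip UMIs here), 283 held one of the transporters Mfsd2a, Slco1a4 or Abcb1a, 66 held both and 56 neither. A UMI of Angpt2 is no sure sign of its expression, since, without thinning, 1.29% to 10.1% of leukocytes and 9.24% to 27.7% of other cells held one, while for Apln and Esm1 these shares were at most 0.611%. In the 107 cells with a tip UMI, Slco1a4 stood at 4.77 UMIs per 10000 against 11.4 in the 273 cells without, Abcb1a at 4.02 against 8.92, Mfsd2a at 1.22 against 1.91, Ocln at 0.888 against 1.96 and Cldn5 at 31.7 against 38.5. The other transporters Slco1c1 (7.43 against 16.7) and Slc2a1, the glucose transporter of the barrier (4.81 against 10.4), were lower in the same cells. The sprouting genes Kdr (9.30 against 5.09) and Col4a1, a basement membrane collagen (26.4 against 11.1), were higher, as were Plvap (3.46 against 0.513) and Aplnr (1.45 against 0.586). These are descriptions over cells of shared libraries with no test.

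By library, Slco1a4 in cells with and without a tip UMI was 2.00 and 12.1 UMIs per 10000 in UT, 3.39 and 11.4 in IgG 2, and 5.00 and 11.1 in CD40. In BP 1 it was 15.6 and 14.4, so the gap seen in these 3 libraries was not seen there. Cells that held a tip UMI numbered 10 in UT, 31 in IgG 2, 48 in CD40 and 8 in BP 1, so UT and BP 1 both rest on few such cells. Abcb1a showed the same order, at 1.0 and 4.72 in UT, 4.52 and 8.38 in IgG 2, 3.44 and 11.8 in CD40, and 10.6 and 5.38 in BP 1. Col4a1 was higher in cells with a tip UMI in UT (14.5 and 6.25), IgG 2 (37.3 and 12.5) and CD40 (27.0 and 11.5), and was 9.38 and 11.2 in BP 1. Plvap stood apart from the rest of the set in CD40, at 6.15 and 0.529, while IgG 2 had 0.968 and 0.692. Cells with a tip UMI were deeper before thinning in IgG 2 (median 21361 against 9680 UMIs) and CD40 (17407 against 7473), and shallower in UT (6551 against 9699). The difference between BP 1 and the other libraries was not tested.

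**Figure D5:**
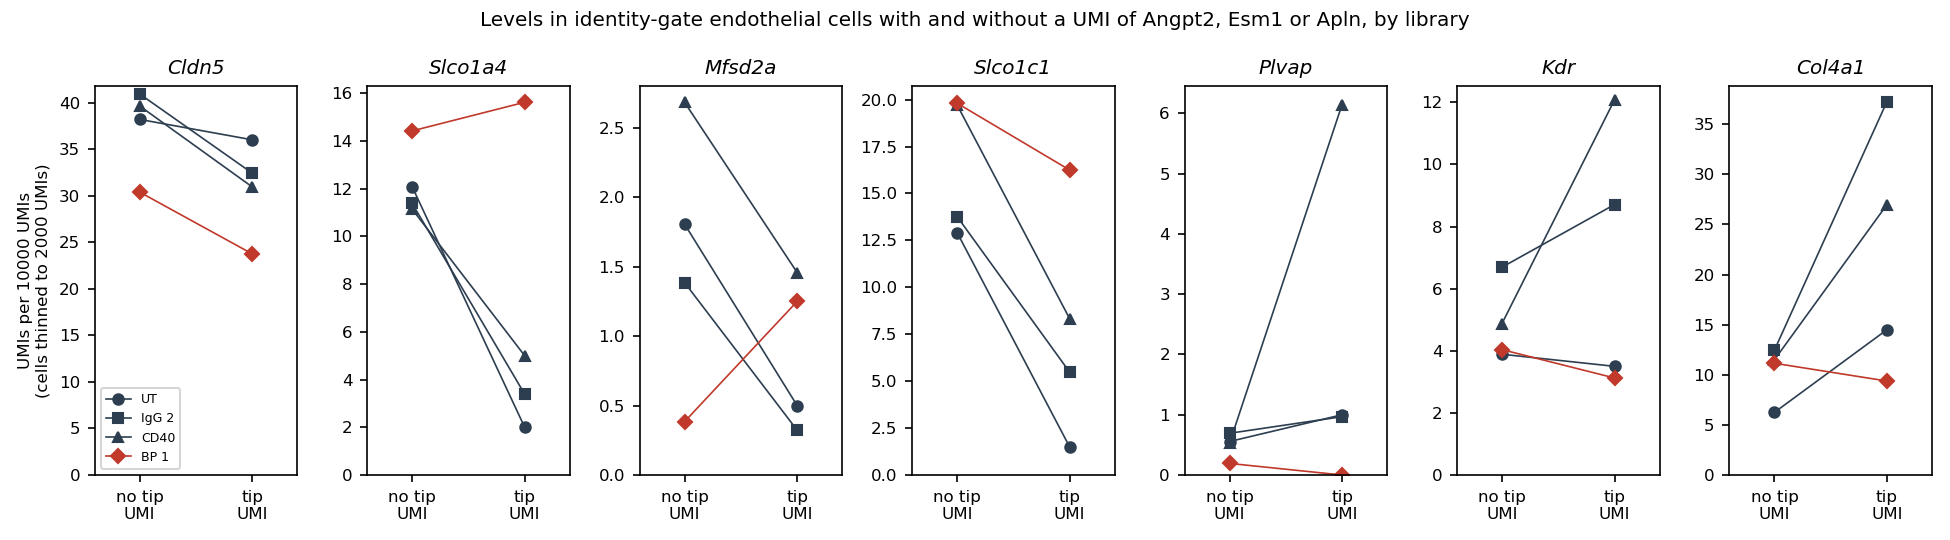
Level of 7 genes (UMIs per 10000, vertical axis) in identity-gate endothelial cells without and with a UMI of Angpt2, Esm1 or Apln, all thinned to 2000 UMIs, by library for UT, IgG 2, CD40 and BP 1. Slco1a4 is lower in cells with a tip UMI in UT, IgG 2 and CD40 (2.00 to 5.00 against 11.1 to 12.1) and not in BP 1 (15.6 against 14.4), and Plvap is high in such cells of CD40 (6.15). UT has 10 cells with a tip UMI and BP 1 has 8.

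Plvap was set against Slco1a4 in the same way, although a Plvap UMI, which free RNA and other cells also carry at like levels, is no sure sign of expression. Of the 380 cells, 31 held a Plvap UMI, 214 a Slco1a4 UMI and 7 both. Cells with a Plvap UMI held Slco1a4 at 3.71 UMIs per 10000 against 10.1 in the rest and Abcb1a at 2.42 against 7.99, with Esm1 at 3.71 against 0.229 and Kdr at 15.3 against 5.47. Cldn5, whose level the gate partly sets, was 15.0 against 38.5. Angpt2 (0.968 against 1.30) and Apln (1.94 against 1.79) were close in both sets of cells. The ligand Apln was seen in 74 cells, its receptor Aplnr in 45 and both in 17.

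Likeness was measured as Pearson's r of log(1 + UMIs per 10000) over 391 identity-gate cells of 5 libraries with at least 20 cells, each library centred on its own mean, as a description of cells that share libraries and depth. The 5 genes most like Mfsd2a among 9963 were Slco1c1 (0.49), Spock2 (0.46), Slco1a4 (0.45), Slc22a8 (0.45) and Tfrc (0.43). The 5 most like Plvap were Plpp3 (0.70), Exoc3l2 (0.64), Plpp1 (0.63), Ednrb (0.61) and Plscr2 (0.51). With the first gate (462 cells), 4 of the 5 were shared for each gene. Between members, r was 0.73 for Slco1a4 with Abcb1a, 0.57 for Apln with Angpt2, 0.41 for Angpt2 with Esm1 and 0.39 for Plvap with Esm1. It was -0.42 for Slco1a4 with Apln, and -0.59 for Plvap with Cldn5, whose UMIs help to admit cells to the gate.

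Further genes of the same pathways were read from lists, to set the members beside them. Of 19 other tip-cell genes tested in BP against IgG, 2 fell and 0 rose, against 1.83% of all genes called, and 17 had values below 0, with a median of -1.32 against -0.04 over all genes, of which 52.7% lay below 0. Those that fell were Nid2, a basement membrane nidogen (-2.69 ± 0.64, edgeR adjusted p = 0.0171), and Trp53i11 (-2.21 ± 0.58, edgeR adjusted p = 0.0332). Nid2 was 86.3 and 78.7 CPM in IgG, 15.3 and 0 in BP, 56.2 in BPI, 21.8 in UT and 82.3 in CD40, so BPI lay above UT and the libraries with and without B20 overlapped. The 0 of Nid2 in BP 2 allows up to 110 CPM, so that library cannot be placed below IgG. Trp53i11 was 168 and 152 CPM in IgG, 41.1 and 36.8 in BP (1 UMI in BP 2), 68.7 in BPI, 87.1 in UT and 108.5 in CD40, so its B20 libraries lay below the rest. The share of all genes that do so was not counted. Col4a1 was 1631 and 2291 CPM in IgG against 637.5 and 736 in BP (-1.90 ± 0.76, edgeR adjusted p = 0.338), Col4a2 had -1.86 ± 0.71, Igfbp3 had -1.92 ± 0.69 (777 and 155 CPM in IgG, 174 and 73.6 in BP, so that IgG 1 alone was high), and Kdr, the VEGF receptor, had -0.96 ± 0.69. UT, not given B20, held Col4a1 at 609 CPM, below both BP libraries. With the identity gate Col4a1 stood at 1424 CPM in BP 1 and 856.5 in UT. Within the identity gate 0 of 18 were called and 15 lay below 0 (median -0.63), against 57.3% of all genes and a median of -0.11. In the B20 comparison 0 of 19 were called and 18 lay below 0 (median -0.88 against -0.08 over all genes, of which 56.8% lay below 0).

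Of 12 other junction genes tested in BP against IgG, 1 fell and 11 had values below 0 (median -0.57), against 1.83% called and 52.7% below 0 among all genes. With the identity gate 0 of 11 were called and 7 lay below 0 (median -0.15), near the 57.3% of all genes. The list holds Cdh5 (-1.19 ± 0.62), a gene of the gate whose level is partly set by it. The gene that fell was Gja1, the gap junction protein connexin 43, which is also an astrocyte marker (-3.29 ± 0.64, edgeR adjusted p = 0.00249), at 149.9 and 95.8 CPM in IgG and 14.6 and 0 in BP. The 0 of BP 2 allows up to 110 CPM, so that library cannot be placed below IgG 2. Gja1 was 36.6 CPM in UT, 88.2 in CD40 and 93.7 in BPI, so the libraries with and without B20 overlapped. With the identity gate BP 1 stood at 34.9 CPM. Tjp1, the junction scaffold ZO-1, had -0.09 ± 0.63, Esam -0.92 ± 0.63 and Ctnnb1 (beta-catenin) -0.63 ± 0.60. Of 20 other barrier transporters 0 were called, with 10 on each side of 0 (median -0.15), and with the identity gate 13 of 19 lay above 0 (median 0.57). Slco1c1, a thyroid hormone transporter, was 299.9 and 509 CPM in IgG against 447 and 2209 in BP (1.13 ± 0.70, edgeR adjusted p = 0.770), and Slc2a1 had 0.15 ± 0.63, Bsg (basigin) 0.44 ± 0.82 and Itm2a -0.41 ± 0.71. Under the identity gate Slco1c1 stood at 1014 CPM in BP 1, and both BP libraries lay above IgG (299.9 and 524.5). Of 15 genes of the Wnt barrier programme 0 were called, with 12 below 0 (median -0.84), and with the identity gate 9 of 15 lay above 0 (median 0.06). Lef1, a TCF/LEF factor of that pathway, was 273 and 351 CPM in IgG and 184 and 847 in BP. With the identity gate BP 1 stood at 424 CPM, above both IgG libraries (273 and 363), while BPI (244 CPM) lay below both. Apcdd1 had 0.49 ± 0.58, Foxq1 -0.39 ± 0.67 and Fzd6 -1.18 ± 0.55. The medians of the transporter and Wnt lists thus lay on different sides of 0 with the 2 gates, while that of the tip-cell list lay below 0 with both.

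Of 13 other permeability and activation genes, 1 rose and 0 fell, against 1.83% of all genes called. Within the identity gate 0 of 13 were called, with 7 above and 6 below 0. The gene that rose was Vcam1, a leukocyte adhesion molecule (2.26 ± 0.58, edgeR adjusted p = 0.0285), at 27.3 and 27.5 CPM in IgG, 201 in BP 1 and 0 in BP 2. The 0 of BP 2 allows up to 110 CPM, so that library cannot be placed above or below IgG. Tmem252 had -1.50 ± 0.62, Emcn -1.60 ± 0.64, Vwf 0.48 ± 0.56 and Cav1 -1.42 ± 0.59. Among 6 angiopoietin and apelin partners Apln was the 1 called, and the phosphatase Ptprb (-0.55 ± 0.67) and the receptors Tek (-1.04 ± 0.68) and Tie1 (-1.38 ± 0.60, edgeR adjusted p = 0.426) had values below 0. In the B20 comparison and with the identity gate 0 genes of these lists were called. Several lists hold identity genes of the second gate (Kdr, Tek, Tie1, Esam, Emcn and Sox17), so their levels with that gate are partly set by it.

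Endothelial cells made up 1.19% of the cells of UT (exact 95% binomial interval 0.919% to 1.52%), 0.202% of IgG 1, 1.47% of IgG 2, 2.60% of CD40, 0.643% of BP 1, 0.140% of BP 2 and 0.362% of BPI. The 2 IgG libraries lay on both sides of BP 1, and CD40 had the highest share. The lowest shares were those of BP 2, IgG 1 and BPI, the libraries whose names run on from each other. Among these, IgG 1, not given B20, lay between BP 2 and BPI, which were given it. The part of this set of libraries in the differences below was not tested. The mean was 0.391% ± 0.355 in BP against 0.835% ± 0.895 in IgG (SD, n = 2 each; two-sided exact permutation p = 0.667, and this design, with 6 regroupings of the libraries, cannot reach 0.05). It was 0.381% ± 0.252 in the 3 libraries with B20 against 1.37% ± 0.986 in the 4 without (two-sided exact permutation p = 0.143). The difference of -0.984 percentage points was -0.572 without CD40 and -0.523 without cells with mural UMIs. Under the identity gate the share of BP 1 was 0.352%. Fewer endothelial cells in the tumour and a lower recovery of them from the tissue cannot be told apart.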

How the data were processed

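Droplet-based RNA sequencing of single cells covered 7 libraries of whole tumours, each assigned to its group by its title. The deposited values are raw UMI counts per gene and barcode for all barcodes. Per the file headers they came from Cell Ranger 4, while the submitters' processing notes name Cell Ranger 7.0.1 and the mouse build mm10 (GRCm38). No normalisation, cell filter, doublet removal or annotation is stated in the sources used here. The hosts' sex was not used, and another tumour model named by the series was not analysed here.

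A barcode counted as a cell from 1000 UMIs and 500 genes upwards, with mitochondrial UMIs of 15% or less. Likely doublets, the top 0.8% per 1000 cells by Scrublet score within each library (253 to 889 barcodes), were then left out, which gave 48588 cells. Python 3.11.15 was used with scanpy 1.11.5, scipy 1.17.1, numpy 2.4.6, anndata 0.12.19 and pandas 2.3.3, and plots were drawn in matplotlib 3.10.9. UMIs were summed per library over endothelial cells and given as CPM. Sums were tested with edgeR 4.0.16 (quasi-likelihood, TMM, filterByExpr, R 4.3.3) at a Benjamini-Hochberg adjusted p of 0.05 over all genes tested, with DESeq2 1.42.0 as an alternative. Libraries with few cells entered the fits, and each lone library was assumed to vary like the others. The labels do not say that libraries came from separate experiments, so p-values measure only the spread between these libraries. The fit was tested on simulated data.

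Alternatives were DESeq2, other scaling, no filter on low counts, doublets kept, a gate of 10 UMIs, Cldn5 left out of the gate, cells with 3 or more mural UMIs left out, thinning to 2000 UMIs, a replicate block, 6 libraries in 1 fit, only libraries of at least 20 cells, each library left out, and the identity gate, which was chosen after seeing the data. Exact 95% intervals and the floor of 3 counts cover counting error only. Positions are from the GENCODE annotation of GRCm38 and promoters from RefSeq (GRCm38.p6). The 10 members and all gene lists were chosen with earlier results of these data known. All members were named whatever their values, and a list gene was named where its adjusted p was under 0.05, or by the highest mean level of its list, up to 4.

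The replicate numbers of IgG and BP come from the titles and were not taken to pair the libraries. Deviations of same-numbered libraries from their group means had r = 0.0672 over 9049 genes. With 2 libraries a group this r can neither show nor exclude pairing.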

Additional observations from a re-analysis of the deposited data

How the results depend on the processing

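The count of genes called in BP against IgG (166) moved to 2 with DESeq2, 467 with no filter on low counts, 1 with a gate of 10 UMIs, 3 after thinning to 2000 UMIs, 0 with the identity gate and 391 with 6 libraries in the fit. Leaving out each library in turn gave 0 (without BP 1) to 593 (without BP 2), with 275 without IgG 1 and 83 without IgG 2. With the replicate number as a block 27 genes were called, Apln among them (-3.78, edgeR adjusted p = 0.00366), and no member's call changed, although the numbers are not known to pair the libraries. For B20 against no B20 the count of 0 moved to 79 with no filter on low counts, and to 0 to 75 with each library left out (75 without UT, 1 without BPI). Aplnr was called in BP against IgG with 6 libraries in the fit (-2.45). In BP against IgG, signs turned for Mfsd2a (0.68 with DESeq2, 0.0280 with a gate of 10 UMIs, 0.0951 with the identity gate), Abcb1a (0.10 with a gate of 10 UMIs, 0.23 with the identity gate), Ocln (0.32 with a gate of 10 UMIs, 0.12 after thinning, 0.36 with the identity gate) and Plvap (-0.41 with a gate of 10 UMIs, -0.76 with the identity gate). Leaving out each library gave -2.48 to 1.94 for Mfsd2a, -0.34 to 1.55 for Slco1a4, -1.25 to 0.48 for Abcb1a, -0.79 to 0.22 for Ocln, -9.05 to 1.27 for Plvap and -4.12 to 0.44 for Aplnr; the -9.05 is a fit against 0 UMIs in BP 2 and is no measure of size. In B20 against no B20, Cldn5 turned to 0.00613 with DESeq2, 0.00710 with RLE scaling, 0.14 with a gate of 10 UMIs, 0.11 with the identity gate, 0.0631 with only libraries of at least 20 cells and 0.19 with both of the latter. Mfsd2a turned to -0.95 after thinning, -0.25 with libraries of at least 20 cells and -0.21 with the identity gate on these, and Slco1a4 to -0.39 with libraries of at least 20 cells. Abcb1a turned to 0.0808 with DESeq2, 0.0821 with RLE scaling, 0.0596 with doublets kept, 0.25 with a gate of 10 UMIs, 0.17 without cells with mural UMIs, 0.29 with the identity gate and 0.20 with that gate on libraries of at least 20 cells. Ocln turned to 0.15, 0.16 and 0.12 with a gate of 10 UMIs, the identity gate and the identity gate on libraries of at least 20 cells. Plvap turned to -0.0401 with DESeq2, -0.68 with a gate of 10 UMIs, -0.38 after thinning, -0.83 with the identity gate and -0.82 with that gate on libraries of at least 20 cells, and Esm1 to 0.12 with DESeq2. Leaving out each library gave -0.72 to 0.41 for Cldn5, -0.47 to 1.30 for Mfsd2a, -0.33 to 0.69 for Slco1a4, -0.36 to 0.47 for Abcb1a, -0.75 to 0.44 for Plvap and -5.71 to 0.91 for Esm1. The cause was not tested for any of these.

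The share of leaky and sprouting UMIs moved in UT to 36.0% with a gate of 10 UMIs, 46.9% without cells with mural UMIs and 17.8% after thinning. It moved to 32.7% and 34.4% in IgG 1, 49.1% and 28.3% in IgG 2, and 51.3% and 23.0% in CD40 without cells with mural UMIs and after thinning, and to 34.8% in CD40 with the identity gate. In BP 1 it moved to 16.4% with a gate of 10 UMIs, 36.0% without cells with mural UMIs, 15.6% with the identity gate and 15.2% after thinning. The difference in endothelial share between BP and IgG turned from -0.444 to 0.189 percentage points without IgG 2 (range -1.08 to 0.189 with each library left out). Of 70 member levels, 28 moved beyond their counting interval with the identity gate, 42 after thinning and 27 without cells with mural UMIs. BP 2 (8 cells) and IgG 1 (12 cells) limit what can be read from single genes, and 2 libraries a group limit each test.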

Other observations

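Genes of arteries and veins, read from the same endothelial cells, varied between libraries without a call in arteries. The vein gene Ackr1, a chemokine receptor of postcapillary venules, was 232 CPM in UT, 81.8 in IgG 1, 24.1 in IgG 2, 60.2 in CD40, 115.5 in BP 1, 0 in BP 2 and 344 in BPI. With the identity gate it was 372 in UT, 273 in BP 1 and 363 in BPI, so UT was then the highest library. Slc38a5, a glutamine transporter of venous and capillary cells, was 66.2, 436, 228.5, 242, 11.8, 442 and 319 CPM in the same order, so UT and BP 1 were the lowest libraries for it, as with the identity gate (105 and 26.6 CPM). The artery gene Gja4, connexin 37, was 50.5, 31.8, 59.7, 46.5, 84.9, 0 and 206 CPM, highest in BPI, and 201 in BP 1 and 218 in BPI with the identity gate (first gate, B20 against no B20: log2 difference 1.22 ± 0.56, edgeR adjusted p = 0.9996). In BP against IgG, Mgp had 0.79 ± 0.68, Unc5b -1.52 ± 0.78, Efnb2 -0.23 ± 0.81 and the vein gene Nr2f2 0.03 ± 0.54. Of 6 artery genes tested in BP against IgG 0 were called by edgeR, and of 7 vein genes 1 was higher, which was Vcam1, against 1.83% of all genes called, and under the identity gate 0 of these 7 were called.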
